A study of Mus musculus with 2 samples.

Results

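The genes described here encode checkpoint and costimulatory receptors of T cells. They are *Cd28*, *Icos*, *Ctla4*, *Pdcd1*, *Btla*, *Lag3*, *Tigit*, *Havcr2* and *Cd200*, 9 of the 32285 genes in the expression matrices, and they were taken as a list by name, without use of their values. Transcripts of single TCRβ+ cells, sorted from spleen pooled with inguinal and cervical lymph nodes, were counted in 2 genotypes at 14 weeks of age. WT mice carried Foxp3Cre alone, and DKO-severe mice carried Foxp3-Cre with floxed *Tet2* and *Tet3* (Tet2/3 fl/fl) and had severe inflammation. Cre is driven by *Foxp3*, so the deletion was directed to regulatory T (Treg) cells and to the cells that descend from them (ex-Treg cells), although this Cre is considered leaky, and the remaining T cells of the DKO-severe mouse lived in an inflamed host. Cells of both genotypes were marked with hashtag antibodies and shared one mRNA library, and 1 mouse per genotype is represented, so that no test between genotypes was possible. The comparison addresses whether DKO-severe T cells, among them Foxp3-negative CD4 cells that include Tfh-like (T follicular helper-like) ex-Treg cells, express these receptors differently from WT T cells.

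A T cell responds when its antigen receptor is engaged together with a costimulatory receptor. CD28 gives that signal on binding CD80 or CD86, and ICOS, a relative of CD28, gives a related signal that Tfh cells need. CTLA-4 binds the same ligands as CD28 without costimulating and is carried at high levels by Treg cells. PD-1 (the product of *Pdcd1*), BTLA, LAG-3, TIGIT and TIM-3 (the product of *Havcr2*) are inhibitory receptors that appear with activation, PD-1 being a standard surface marker of Tfh cells and several of them together a mark of chronically stimulated cells. CD200 is itself a ligand, for the inhibitory receptor CD200R1, and is found on activated T cells, B cells and Tfh cells.

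On the mm10 assembly with GENCODE M21 annotation the genes lie on 4 chromosomes. *Cd28* (chr1:60716800-60773359), *Ctla4* (chr1:60887000-60915832) and *Icos* (chr1:60977927-61000320) stand next to each other on the plus strand, and *Pdcd1* (chr1:94038305-94052553, minus strand) lies farther along chromosome 1. Chromosome 16 holds *Tigit* (chr16:43648867-43664146, minus), *Btla* (chr16:45224315-45257670, plus) and *Cd200* (chr16:45382135-45409053, minus). *Lag3* lies at chr6:124904361-124911705 on the minus strand and *Havcr2* at chr11:46454935-46481255 on the plus strand. Promoter sequences from RefSeq on GRCm38.p6, which is the same assembly as mm10, were at hand for 6 of the 9 genes (*Pdcd1*, *Ctla4*, *Btla*, *Tigit*, *Havcr2* and *Cd200*). The 4 shown are those of *Havcr2*, *Tigit*, *Btla* and *Cd200*. In DKO-severe CD4 cells *Havcr2* was found with *Btla* and *Cd200* less often than expected, while *Tigit* was not clearly set apart from them, as given below. Each runs 5′ to 3′ on the gene's own strand from 250 bases before to 50 bases after the annotated start, and capitals mark CG, the dinucleotide at which TET enzymes mostly act.
Havcr2 promoter (chr11:46454681-46454980, plus): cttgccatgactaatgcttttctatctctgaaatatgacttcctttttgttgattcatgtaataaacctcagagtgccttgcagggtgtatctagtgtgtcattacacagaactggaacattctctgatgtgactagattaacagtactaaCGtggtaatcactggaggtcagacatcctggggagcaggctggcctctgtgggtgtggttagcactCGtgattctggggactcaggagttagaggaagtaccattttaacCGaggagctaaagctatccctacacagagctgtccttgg
Tigit promoter (chr16:43664135-43664434, minus): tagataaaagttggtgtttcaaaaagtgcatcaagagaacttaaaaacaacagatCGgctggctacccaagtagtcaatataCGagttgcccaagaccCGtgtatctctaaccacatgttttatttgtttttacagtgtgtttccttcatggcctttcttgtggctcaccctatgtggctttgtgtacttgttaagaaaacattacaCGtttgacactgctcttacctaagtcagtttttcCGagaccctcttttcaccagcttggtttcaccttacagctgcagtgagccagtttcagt
Btla promoter (chr16:45224087-45224386, plus): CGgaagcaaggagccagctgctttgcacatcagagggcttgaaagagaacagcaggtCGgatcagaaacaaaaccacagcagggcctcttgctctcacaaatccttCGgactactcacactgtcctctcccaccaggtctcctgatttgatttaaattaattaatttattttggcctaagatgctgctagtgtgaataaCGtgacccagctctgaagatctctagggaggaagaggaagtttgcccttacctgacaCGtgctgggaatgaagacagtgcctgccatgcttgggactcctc
Cd200 promoter (chr16:45409004-45409303, minus): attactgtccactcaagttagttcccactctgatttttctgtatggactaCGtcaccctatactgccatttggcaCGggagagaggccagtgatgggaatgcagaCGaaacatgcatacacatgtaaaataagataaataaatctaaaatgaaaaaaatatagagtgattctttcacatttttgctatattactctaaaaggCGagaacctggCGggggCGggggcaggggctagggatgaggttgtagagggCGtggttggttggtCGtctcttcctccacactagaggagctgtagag
The *Havcr2* window held 3 CG, those of *Tigit*, *Btla* and *Pdcd1* 5 each, and those of *Cd200* and *Ctla4* 8 each, against a median of 7 (quartiles 3 and 20) over 32851 mouse promoters of the same length. TGANTCA, a form of the AP-1 site, was matched on either strand in 1 of the 6 promoters, that of *Havcr2*, and in 7.81% of all promoters. GGAAA, the core letters of an NFAT site, was matched in *Pdcd1*, *Ctla4* and *Tigit*, and in 61.3% of all promoters. These are letter matches. Methylation of the windows was not analysed here.

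Cells were sorted into gates by the transcripts they carried. Every T cell gate required a UMI (a unique molecular identifier, 1 counted transcript) of a *Cd3* gene. The Cd4 Foxp3-negative gate (1675 WT and 2407 DKO-severe cells) held *Cd4* and neither *Cd8a*, *Cd8b1* nor *Foxp3*, the Foxp3-positive gate (64 and 331 cells) held *Cd4* with *Foxp3*, and the Cd8 gate (3052 and 1735 cells) held *Cd8a* or *Cd8b1* without *Cd4*. The innate-like gate (105 and 220 cells) held *Zbtb16*, the PLZF gene of NKT and related cells, without *Foxp3*. It overlaps the others, since 19.0% of its WT cells and 39.5% of its DKO-severe cells also lay in the Cd4 Foxp3-negative gate. Cells in which *Foxp3* was present but not captured remain in the Foxp3-negative gate, and ex-Treg cells cannot be told apart there from CD4 cells that never expressed *Foxp3*. DKO-severe cells were more deeply sequenced (median 8066 UMIs against 5616), and most of all in the Foxp3-positive gate (11545 against 5382). Levels are therefore given as counts (UMIs) per 1000000 UMIs of a gate (CPM), and detection is given after each cell was thinned at random to 3800 UMIs. Transcripts of other lineages also differed. The summed level of 6 granulocyte genes was between 76.1 and 84.1 CPM in the 4 WT gates and between 1397 and 3814 CPM in the DKO-severe gates, with 1 or 2 of the genes at 20 CPM or more in WT and 5 in DKO-severe. Their part in the results was not tested beyond leaving out cells with B or myeloid transcripts, as given below.

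In Cd4 Foxp3-negative cells every one of the 9 receptors had a higher level in DKO-severe than in WT, and for 8 of them the difference was 2-fold or more. *Cd28* was the exception. Of the 8 receptors with a mean of 20 CPM or more, 7 were at least 2-fold higher and 0 at least 2-fold lower. Among all 6301 genes at that mean, 7.98% were at least 2-fold higher and 3.3% at least 2-fold lower. The median log2 ratio (DKO-severe over WT) of the 8 was 2.28, beside 0.10 for all genes. Intervals in brackets are 95% intervals for counting error only, and they do not cover differences between mice.

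The costimulatory pair differed in size of change. WT cells held *Cd28* at 316 CPM (305–327) and DKO-severe cells at 406 CPM (398–414), for a log2 ratio of 0.36 (0.30–0.42). *Icos* stood at 97.9 CPM (91.8–104) and 421 CPM (413–430), and its log2 ratio was 2.11 (2.01–2.20). *Ctla4*, which competes with *Cd28* for ligand, went with *Icos*. Its WT level was 88.7 CPM (82.9–94.8) and its DKO-severe level 326 CPM (319–334), for a log2 ratio of 1.88 (1.78–1.98).

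The inhibitory receptors that were rare in WT differed most. *Pdcd1* stood at 17.0 CPM (14.5–19.8) in WT cells and was 6.25-fold higher, at 106 CPM (102–110), in DKO-severe cells, for a log2 ratio of 2.64 (2.42–2.88). *Lag3*, a receptor for MHC class II, was at 6.95 CPM (5.40–8.82) from 68 UMIs and 155 CPM (150–160) from 3593 UMIs, 22.2-fold higher with a log2 value of 4.47 (4.13–4.84). WT cells held 5 UMIs of *Havcr2* (0.511 CPM, 0.166–1.19), and DKO-severe cells held 934 (40.2 CPM, 37.7–42.8). Its ratio was thus the highest of the list and the least exact, 78.6-fold, with a log2 value of 6.30 (5.07–7.92). With 5 CPM added to both genotypes the *Havcr2* log2 ratio was 3.04, since the WT level is near 0.

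*Tigit*, a receptor for CD155 carried by Treg and Tfh cells, was counted 30 times (3.07 CPM) in WT cells and 679 times (29.2 CPM) in DKO-severe cells. Its log2 ratio was 3.25 (2.72–3.83), but its mean lay under 20 CPM and it was left out of the count of 8. *Cd200* was at 37.5 CPM (33.8–41.6) and 205 CPM (199–211), a log2 ratio of 2.45 (2.29–2.60). *Btla*, the receptor for HVEM that naive T cells and B cells also carry, was at 144 CPM (137–152) and 308 CPM (301–315), a log2 ratio of 1.10 (1.01–1.18). *Btla* thus lay close to the 2-fold line, and *Cd28* below it. Without cells that held a UMI of a B or myeloid gene, the log2 ratios were 4.59 for *Lag3*, 6.99 for *Havcr2*, 2.68 for *Pdcd1*, 2.14 for *Icos* and 1.18 for *Btla*, each as large as with those cells.

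**Figure D1:**
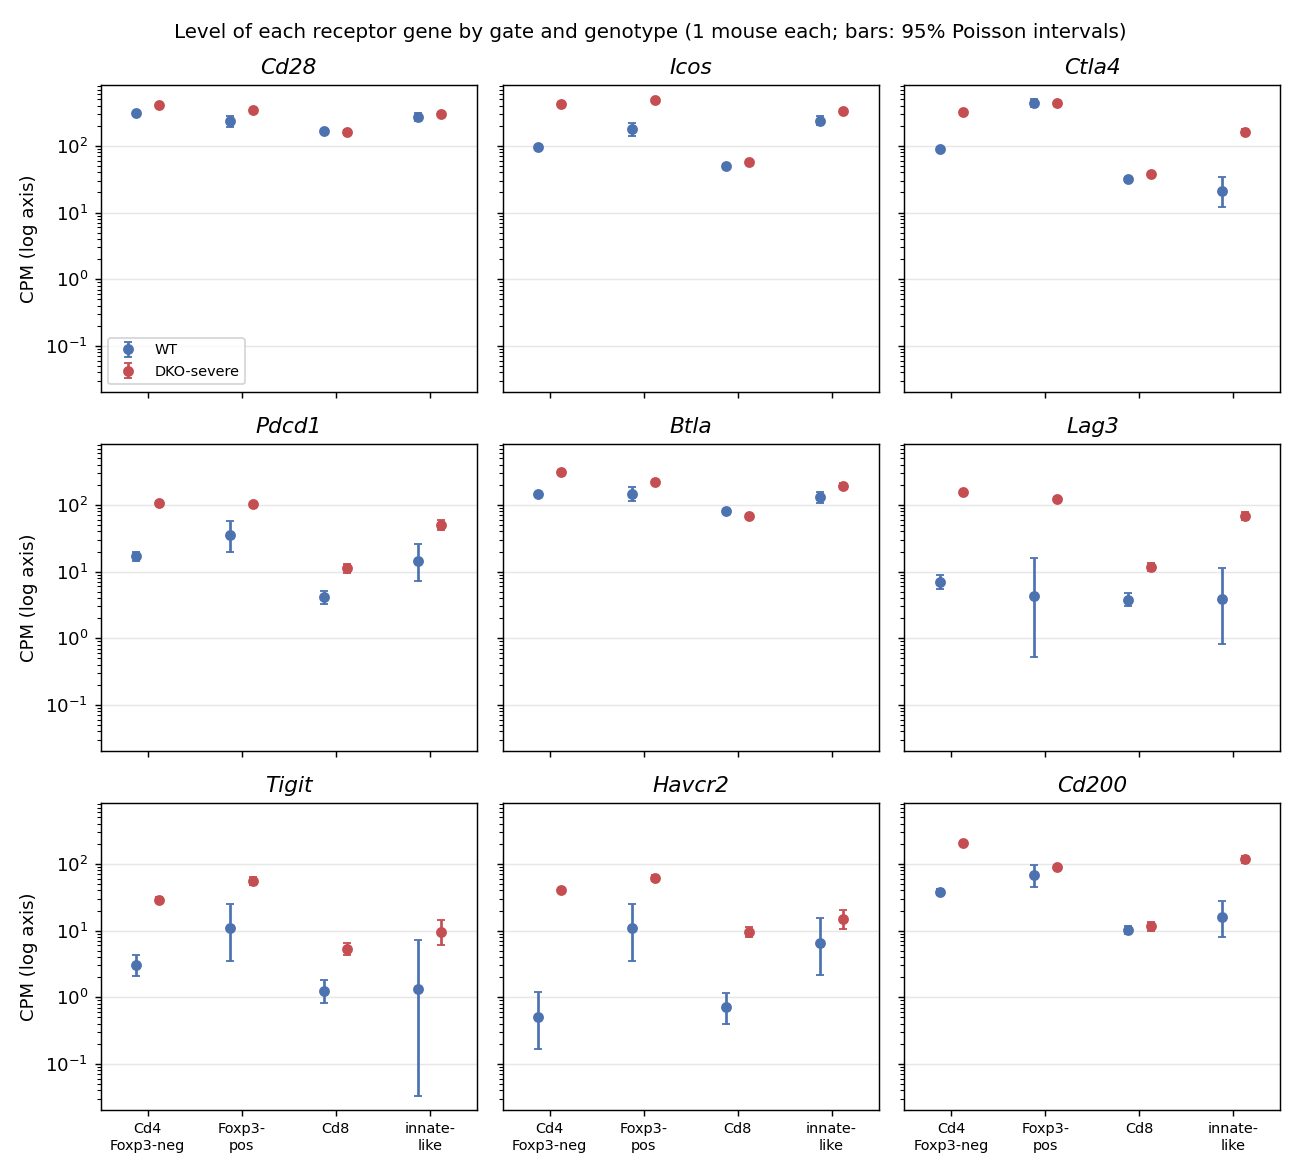
Level of each receptor gene in CPM (log axis) in the Cd4 Foxp3-negative, Foxp3-positive, Cd8 and innate-like gates, with WT in blue and DKO-severe in red, 1 mouse each, and bars giving 95% Poisson intervals. *Havcr2* in Cd4 Foxp3-negative cells stands at 0.511 CPM (WT) and 40.2 CPM (DKO-severe), while *Ctla4* in the Foxp3-positive gate stands at 442 and 435 CPM.

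In the Foxp3-positive gate, 9 of 9 receptors had a mean of 20 CPM or more, 5 were at least 2-fold higher in DKO-severe and 0 at least 2-fold lower, beside 8% and 5.8% of all 6488 genes. The median log2 ratio of the list was 1.45, beside 0.04 for all genes. *Ctla4* stood at nearly the same level in both genotypes. Its WT level was 442 CPM (383–507) and its DKO-severe level 435 CPM (417–454), for a log2 ratio of -0.02 (-0.23 to 0.19). *Ctla4* is a defining product of Treg cells, and its level in the WT gate was above that of WT Foxp3-negative cells, the gate being set by *Foxp3*.

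Foxp3-positive cells held *Icos* at 176 CPM (140–219) in the WT and at 481 CPM (462–501) in the DKO-severe mouse, for a log2 ratio of 1.45 (1.13–1.79). *Lag3* had 2 UMIs in WT (4.36 CPM) and 580 in DKO-severe (123 CPM), and with the 2 UMIs counted as 3 its log2 ratio was 4.23 (2.96–7.87). *Tigit* and *Havcr2* each had 5 UMIs in WT (10.9 CPM, 3.54–25.4), and stood at 55.7 and 61.7 CPM in DKO-severe. Their log2 ratios were 2.36 (1.11–3.99) and 2.50 (1.26–4.14). The WT side of these ratios rests on a handful of transcripts in 64 cells.

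*Pdcd1* was at 34.9 CPM (19.9–56.6) and 102 CPM (93.4–112) in Foxp3-positive cells, *Cd28* at 233 and 345 CPM, *Btla* at 148 and 223 CPM, and *Cd200* at 67.5 and 89.0 CPM. The interval of the *Cd200* log2 ratio, 0.40 (-0.13 to 0.97), includes 0. The gate depends on depth because *Foxp3* itself is sparse, and only 34 WT and 95 DKO-severe cells remained in it at 3800 UMIs. At that depth the *Pdcd1* log2 ratio was 0.56, while *Icos* was at 1.79, *Tigit* at 1.84 and *Lag3* at 2.96, with only 3 WT UMIs of *Tigit* and 2 of *Lag3*. With 2 or more UMIs required of each gating gene, the log2 ratios were 1.70 for *Lag3*, 1.07 for *Tigit*, 0.55 for *Havcr2* and 1.12 for *Icos*, and 1.36 for *Cd28* and 1.55 for *Cd200*. The size of these ratios therefore depended on how Foxp3-positive cells were gated, while *Lag3*, *Tigit* and *Icos* were at least 2-fold higher in each of these 3 settings.

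In Cd8 cells the receptors of higher level were near equal in the 2 genotypes. Among the 4 with a mean of 20 CPM or more, 0 were 2-fold higher and 0 were 2-fold lower, beside 1.71% and 0.872% of all 5848 genes, and their median log2 ratio was 0.08 (-0.01 for all genes). Levels in WT and DKO-severe were 169 CPM (163–175) and 164 CPM (158–171) for *Cd28*, 50.7 and 58.0 CPM for *Icos*, and 31.3 and 38 CPM for *Ctla4*. *Btla* was lower in DKO-severe, with 79.8 CPM (76.0–83.7) against 68.2 CPM (64.3–72.3) and a log2 ratio of -0.23 (-0.34 to -0.12).

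The rarer receptors of Cd8 cells were at low levels in both genotypes. *Pdcd1* was at 4.10 and 11.2 CPM, *Lag3* at 3.81 and 11.8 CPM, *Tigit* at 1.24 and 5.32 CPM, and *Havcr2* at 0.714 CPM (15 UMIs) and 9.56 CPM (158 UMIs). The log2 ratio of *Havcr2* was 3.74 (2.98–4.61) and those of *Pdcd1*, *Lag3* and *Tigit* 1.45, 1.63 and 2.10, with intervals above 0. With 5 CPM added to both levels, these ratios were 1.35, 0.83, 0.93 and 0.73 in the same order. No difference is read for *Tigit*, whose detection at equal depth was not told from background in either genotype. For *Pdcd1*, *Lag3* and *Havcr2* the WT shares are read as background, and the DKO-severe shares have intervals that reach the background limits given below. The sizes of their ratios are therefore uncertain. *Cd200*, at 10.1 and 11.6 CPM, had an interval that includes 0 (-0.09 to 0.48). All 5 lay under the mean of 20 CPM. The summed level of 4 NK genes in this gate was 18.8 CPM (WT) and 803 CPM (DKO-severe), and its part in the result was not tested.

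In the innate-like gate, 4 of the 7 receptors with a mean of 20 CPM or more were at least 2-fold higher in DKO-severe and 0 at least 2-fold lower, beside 5.01% and 1.65% of all 6623 genes. The median log2 ratio was 1.79 for the 7 and 0.02 for all genes. Going from WT to DKO-severe, *Ctla4* was at 21 CPM (16 UMIs) and 161 CPM (405 UMIs), *Cd200* at 15.7 CPM (12 UMIs) and 118 CPM (297 UMIs), *Lag3* at 3.94 CPM (3 UMIs) and 68.3 CPM (172 UMIs), and *Pdcd1* at 14.4 CPM (11 UMIs) and 50.1 CPM (126 UMIs). *Icos* and *Cd28*, already high in WT at 240 and 274 CPM, were at 337 and 298 CPM. Several of these ratios changed when CD4 cells were left out of the gate. Without cells of the Cd4 gate the log2 ratio of *Ctla4* went from 2.94 to 1.91, that of *Btla* from 0.57 to 0.05 and that of *Icos* from 0.49 to 0.21, while *Cd200* was at 2.70, *Lag3* at 3.19 and *Pdcd1* at 1.16. At equal depth, *Ctla4* and *Lag3* were at 1.96 and 1.89, *Cd200* at 1.42 and *Btla* at 0.04. Without cells that held a UMI of a B or myeloid gene, *Ctla4* was at 3.23, *Lag3* at 3.68, *Pdcd1* at 1.75 and *Cd200* at 4.09. *Tigit*, under the mean of 20 CPM, went from 1.28 to 0.54. *Havcr2*, with 5 and 38 UMIs, had a log2 ratio of 1.20 (-0.15 to 2.91) that was -0.28 without Cd4 gate cells and -0.36 at equal depth, so no direction is given for it here.

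**Figure D2:**
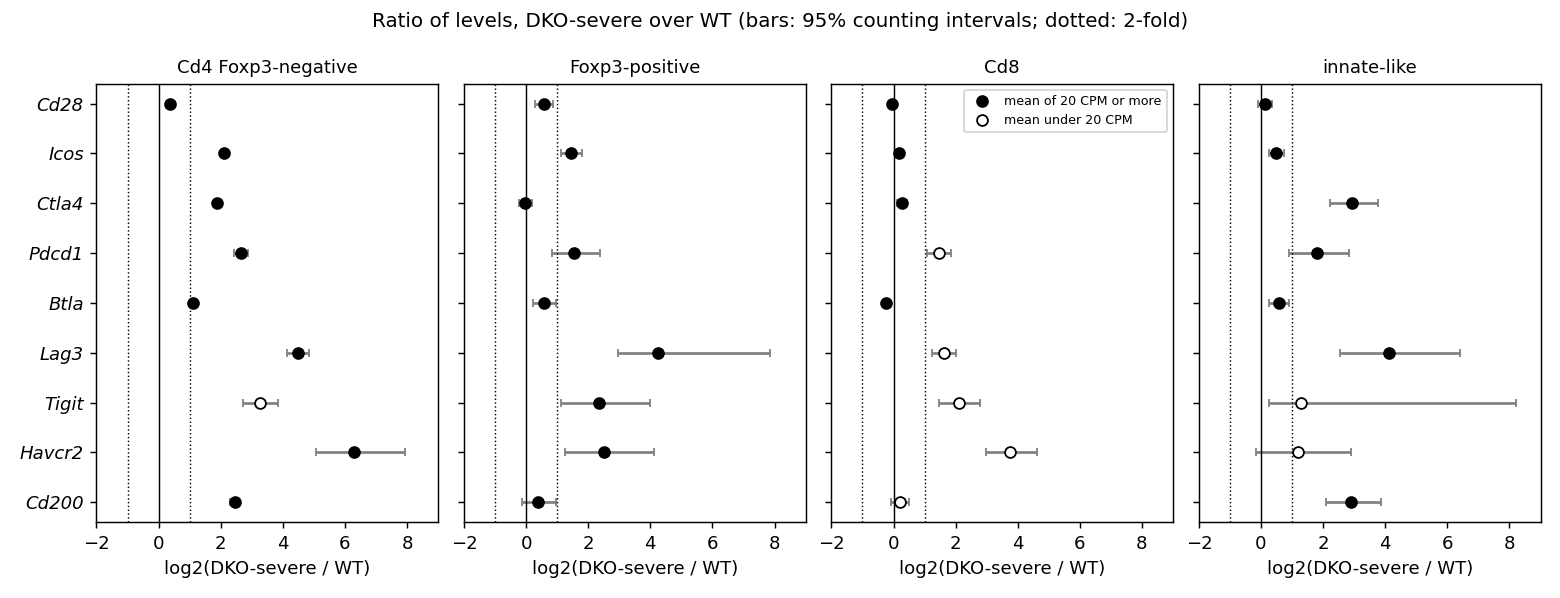
Log2 ratio of the level in DKO-severe over WT for each receptor gene in each gate, with 95% counting intervals, dotted lines at 2-fold, and open points for genes with a mean under 20 CPM. The points run from 0.36 for *Cd28* to 6.30 for *Havcr2* in Cd4 Foxp3-negative cells, and *Ctla4* in Foxp3-positive cells and *Cd28* in Cd8 cells lie at 0 within their intervals.

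The order of the gates for a given receptor was not the same in the 2 genotypes. For *Lag3*, neighbouring gates overlapped in their intervals throughout in WT, between 3.81 and 6.95 CPM, whereas in DKO-severe the order Cd4 Foxp3-negative, Foxp3-positive, innate-like, Cd8 had intervals apart at each step. *Pdcd1* was highest in the Foxp3-positive gate in WT, and in DKO-severe its levels in the Foxp3-negative and Foxp3-positive gates (106 and 102 CPM) overlapped. *Icos* was highest in innate-like cells in WT, overlapping the Foxp3-positive gate, and in DKO-severe it was highest in Foxp3-positive cells, with every neighbour apart. *Cd200* was highest in Foxp3-positive cells in WT and in Foxp3-negative cells in DKO-severe, where it was at 205 CPM, followed by the innate-like (118 CPM) and Foxp3-positive (89.0 CPM) gates, all apart. *Ctla4* and *Tigit* were highest in the Foxp3-positive gate in both genotypes, the latter overlapping its neighbour in WT. WT innate-like cells were last for *Ctla4*, overlapping Cd8 cells, whereas in DKO-severe they stood above Cd8 cells. WT levels of *Havcr2* fell into 2 overlapping pairs, Foxp3-positive with innate-like above Cd8 with Foxp3-negative. In DKO-severe it was at 61.7 CPM in Foxp3-positive and 40.2 CPM in Foxp3-negative cells, with intervals apart, and its innate-like and Cd8 levels overlapped. *Cd28* and *Btla* were lowest in Cd8 cells in both genotypes, and neighbours among their other 3 gates overlapped in WT. In DKO-severe the Foxp3-negative gate was first for both.

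Detection at equal depth showed how many cells carried the transcripts. Among Cd4 Foxp3-negative cells (1224 WT and 1846 DKO-severe), WT cells carried *Lag3* in 2.04% (1.33–3.00) and DKO-severe cells in 38.1% (35.9–40.3). *Pdcd1* was detected in 4.25% (3.19–5.53) and 27.8% (25.8–29.9), *Icos* in 22.1% (19.8–24.6) and 65.9% (63.7–68.0), and *Ctla4* in 17.6% (15.5–19.8) and 57.8% (55.5–60.1). *Cd200* was detected in 9.07% (7.52–10.8) and 40.7% (38.4–43.0), *Btla* in 37.2% and 56.7%, and *Cd28* in 63.8% and 74.6%. The smallest shares were those of *Tigit*, in 0.735% (0.337–1.39) and 11.5% (10.1–13.1), and *Havcr2*, in 2 WT cells (0.163%, 0.0198–0.589) and 151 DKO-severe cells (8.18%, 6.97–9.52). Without thinning the shares of *Lag3* were 2.99% and 52.1% and those of *Havcr2* 0.239% and 10.5%.

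Free RNA can place a transcript in a cell that does not make it. In 178 DKO-severe B-lineage cells at the same depth, *Pdcd1*, *Icos* and *Lag3* were each detected in 0.562%, *Ctla4* in 2.25%, *Cd28* in 2.81%, and *Tigit* and *Havcr2* in 0 cells (the limit for a count of 0, taken as 3 counts, is 1.69%). B cells express *Btla* (69.1% of these cells) and *Cd200* (17.4%), so for these 2 genes 56 DKO-severe myeloid cells served, with *Btla* in 7.14% and *Cd200* in 0 cells. *Havcr2*, which myeloid cells also express, was found in 3 of these 56 cells (5.36%). The DKO-severe shares in Cd4 Foxp3-negative cells lay above the B-lineage shares, or for *Btla* and *Cd200* above the myeloid ones, while the 8.18% of *Havcr2* lies within the interval of its myeloid share (1.12–14.9). In WT too few B-lineage cells (10) were present to set a background, and the WT shares of *Havcr2* and *Tigit* are below that 1.69%. The WT share of *Lag3* (2.04%) likewise lies under the upper bound of its B-lineage share (3.09%), so *Lag3*, *Tigit* and *Havcr2* in WT Foxp3-negative cells are not told from background. In Cd8 cells, the WT shares of *Pdcd1* and *Lag3* lie under that 3.09% and those of *Tigit* and *Havcr2* under 1.69%, and they are read as background. The DKO-severe share of *Tigit* in Cd8 cells (1.72%, 1.14–2.50) is not told from 1.69%, and it is read as background too. Those of *Pdcd1* (3.64%, 2.76–4.68) and *Lag3* (3.89%, 2.99–4.97) have intervals that include 3.09%. That of *Havcr2* (2.36%, 1.67–3.24) has an interval that includes 1.69%, so by share these genes are not clearly told from background. By level, their DKO-severe intervals in Cd8 and B-lineage cells lay apart. *Pdcd1* was at 11.2 CPM (9.64–12.9) in Cd8 and 0.750 CPM (0.0190–4.18) in B-lineage cells. *Lag3* was at 11.8 CPM (10.2–13.6) and 0.750 CPM (0.0190–4.18). *Havcr2* was at 9.56 CPM (8.13–11.2) and 0 CPM (0–2.77), but its Cd8 interval overlaps that of myeloid cells (6.45 CPM). Whether free RNA accounts for part of these levels was not tested.

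The level per positive cell differed between receptors. At equal depth, DKO-severe and WT Foxp3-negative cells with *Pdcd1* carried 1.43 and 1.44 UMIs of it on average, and those with *Tigit* 1.20 and 1.22. *Icos* went from 1.62 to 2.50 UMIs per positive cell, *Btla* from 1.47 to 2.21 and *Lag3* from 1.24 to 1.80. *Havcr2* was concentrated. Its 151 positive DKO-severe cells carried 2.32 UMIs each on average and up to 11, although it was the least often detected of the list. One *Btla*-positive cell carried 21 UMIs.

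In the Foxp3-positive gate at equal depth (34 WT and 95 DKO-severe cells) *Lag3* was detected in 5.88% (0.72–19.7) and 38.9% (29.1–49.5), *Icos* in 41.2% (24.6–59.3) and 72.6% (62.5–81.3), and *Ctla4* in 79.4% (62.1–91.3) and 68.4% (58.1–77.6). *Havcr2* was detected in 0 of 34 WT cells (a limit of 8.82%, again as 3 counts) and 14 of 95 DKO-severe ones (14.7%, 8.30–23.5). Of those 14 cells, 13 also carried *Lag3* and 13 *Icos*. In Cd8 cells (2898 and 1568), *Icos* was detected in 15.4% and 15.3% and *Cd28* in 41.0% and 40.9%, while *Lag3* was at 1.14% and 3.89% and *Havcr2* at 0.207% and 2.36%. Among innate-like cells (84 and 144) *Icos* was at 58.3% and 53.5%, *Btla* at 33.3% and 30.6%, and *Ctla4* at 7.14% and 18.1%. For *Icos* and *Btla* in this gate the share goes the other way from the CPM, and no order is read from either.

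Many DKO-severe CD4 cells carried several receptors at once. Among DKO-severe Cd4 Foxp3-negative cells at 3800 UMIs, 58.4% (56.1–60.7) carried transcripts of 4 or more of the 9 receptors and 3.41% (2.63–4.35) carried none, against 6.29% (4.996–7.80) and 15.6% (13.6–17.8) of WT cells. The highest number in a cell was 8 in DKO-severe and 6 in WT. The share with 2 or more was 87.6% in DKO-severe and 45.9% in WT. Independent detection at the same single shares would give 96.4% and 50.3%, so cells with few receptors were more common than that in both genotypes. In Foxp3-positive cells the share with 4 or more was 17.6% (6 cells) in WT and 64.2% in DKO-severe, and in innate-like cells 3.57% and 13.9%. In Cd8 cells it was 1.14% and 2.74%.

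**Figure D3:**
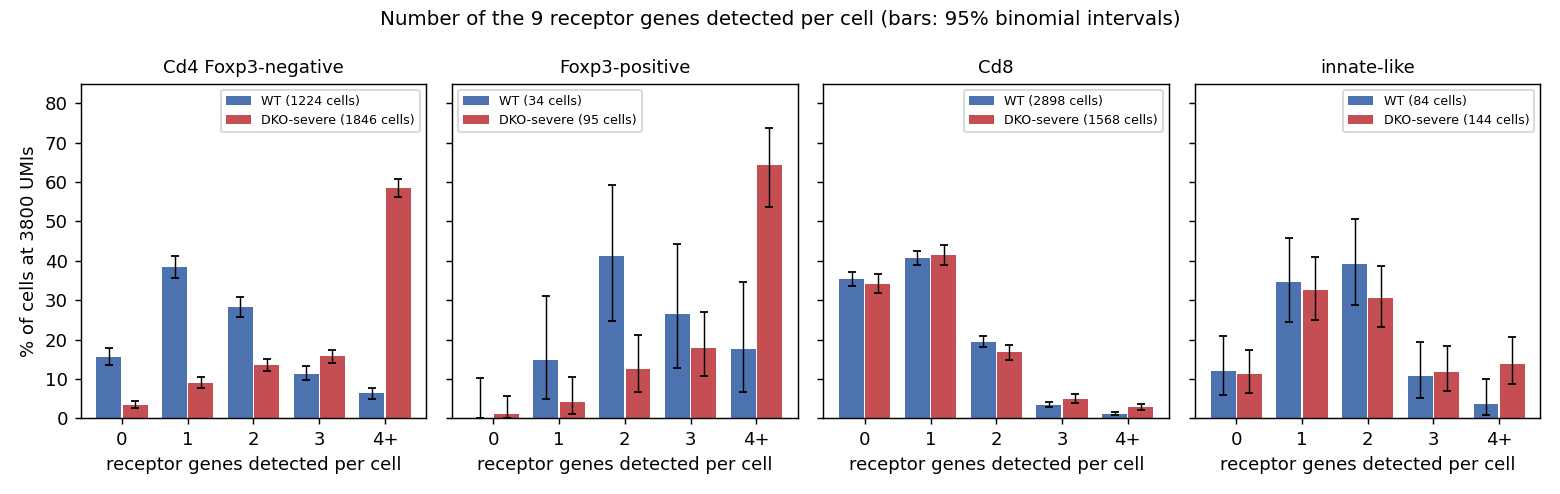
Percent of cells (vertical axis, cells thinned to 3800 UMIs) in which 0, 1, 2, 3 or 4 and more of the 9 receptor genes were detected, by gate, with WT in blue and DKO-severe in red and bars giving 95% binomial intervals. The DKO-severe bar at 4 and more reaches 58.4% in Cd4 Foxp3-negative cells and 64.2% in Foxp3-positive cells, while the 2 genotypes lie close in Cd8 cells.

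Pairs were compared with the share expected if both genes were detected independently, which is the product of their single shares. In DKO-severe Cd4 Foxp3-negative cells, 32 of 36 pairs were found more often than the product, with ratios from 0.537 to 3.27 and a median of 1.14. Pairs with *Ptprc* (CD45), a gene of nearly every leukocyte, gave ratios between 1.00 and 1.01. A gene found in nearly every cell can only give ratios near 1, so these set no reference for the receptor pairs. *Tigit* with *Havcr2* was the pair most above the product, in 57 cells or 3.09% (2.35–3.98) against a product of 0.944%. *Lag3* with *Havcr2* followed in 111 cells (6.01% against 3.12%, a ratio of 1.93), and *Pdcd1* with *Havcr2* in 76 cells (a ratio of 1.81). *Pdcd1* with *Tigit*, *Lag3* with *Tigit* and *Pdcd1* with *Lag3* had ratios of 1.57, 1.47 and 1.36.

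The 4 pairs below the product joined *Btla* or *Cd200* with *Havcr2* or *Tigit*. *Btla* and *Havcr2* were found together in 46 cells, 2.49% against a product of 4.64%, a ratio of 0.537. The ratio of *Havcr2* with *Cd200* was 0.733, and those of *Btla* and *Cd200* with *Tigit* were 0.886 and 0.923. For the *Tigit* pairs the interval of the observed share includes the product, at 5.80% (4.77–6.96) against 6.54% with *Btla* and 4.33% (3.45–5.36) against 4.69% with *Cd200*. *Btla* and *Cd200* themselves were found together more often than the product, with a ratio of 1.23. In WT, 18 pairs had a product of at least 5 cells, and 18 of these lay above it, with a median ratio of 1.26. The highest were *Icos* with *Lag3* (14 cells, 2.53), *Pdcd1* with *Ctla4* (23 cells, 2.52), *Pdcd1* with *Icos* (24 cells, 2.08) and *Ctla4* with *Cd200* (40 cells, 2.05), none of which involves *Havcr2*, for which WT had too few cells.

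**Figure D4:**
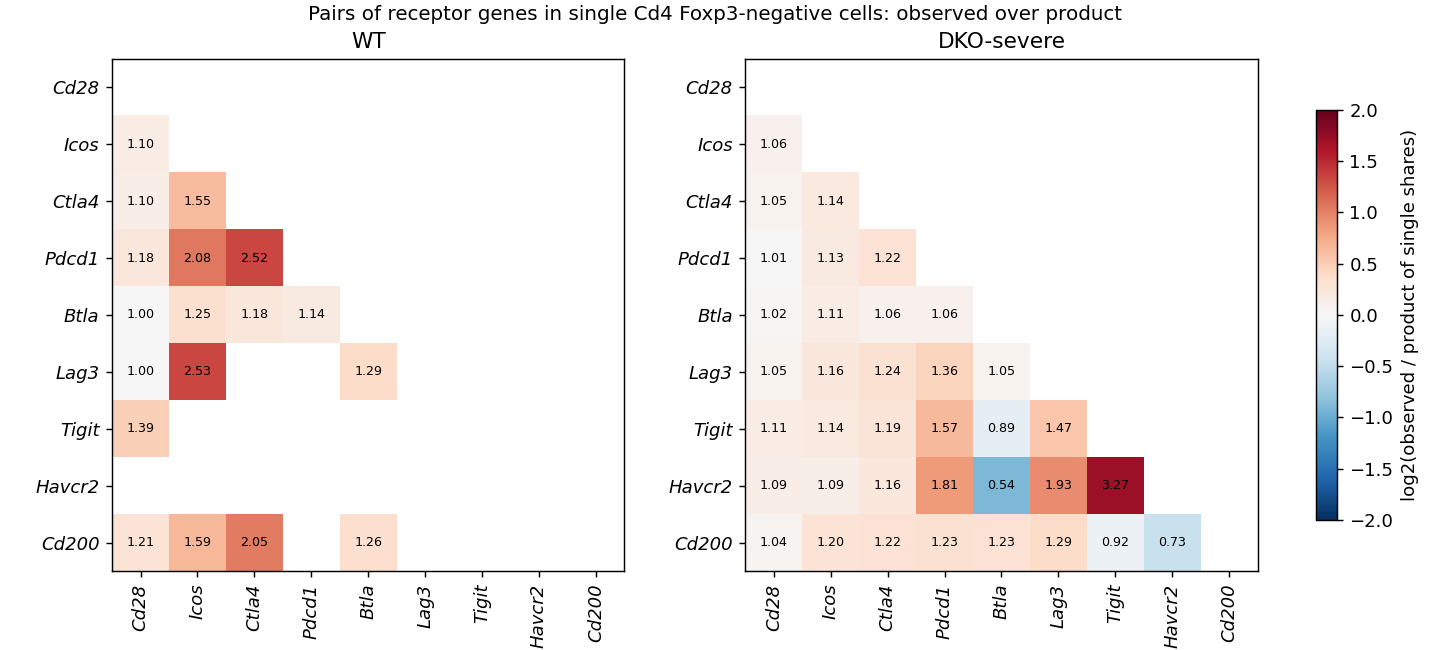
Observed share of cells with both genes of a pair divided by the product of their single shares, for WT (left) and DKO-severe (right) Cd4 Foxp3-negative cells at 3800 UMIs. Numbers in the cells are the ratios, colour is their log2, and pairs with a product under 5 cells are blank. In DKO-severe the *Tigit* and *Havcr2* pair stands at 3.27 and the *Btla* and *Havcr2* pair at 0.54.

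Cells with *Havcr2* were set apart in the other receptors they carried. Of the 151 DKO-severe Foxp3-negative cells with a *Havcr2* UMI, 73.5% (65.7–80.4) carried *Lag3*, against 34.9% (32.7–37.2) of the 1695 cells without. *Tigit* was found in 37.7% (30–46.0) against 9.20% (7.87–10.7), and *Pdcd1* in 50.3% (42.1–58.6) against 25.8% (23.8–28.0). *Btla* was found in 30.5% (23.2–38.5) against 59.1% (56.7–61.4), and *Cd200* in 29.8% (22.6–37.8) against 41.7% (39.3–44.0). *Cd28*, *Icos* and *Ctla4* were each found in a larger share of the cells with *Havcr2*, with intervals that overlap those of the cells without.

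The same cells differed in genes outside the list, which were chosen after their values were seen. Cytotoxic and chemokine genes were more often present with *Havcr2*. *Nkg7*, a granule protein gene, was detected in 88.1% of the cells with *Havcr2* and 22.7% of those without, and the chemokine genes *Ccl5* in 85.4% and 24.0%, *Ccl4* in 66.9% and 6.37%, and *Ccl3* in 60.3% and 3.72%. Granzyme B (*Gzmb*) was at 38.4% and 4.01%, interferon gamma (*Ifng*) at 36.4% and 3.01%, and perforin (*Prf1*) at 31.8% and 2.54%. *Gzmk* was rare in both, at 1.32% and 0.531%. *Penk*, which encodes the opioid precursor proenkephalin, was at 82.8% and 24.2%.

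Genes of naive and follicular cells were less often present with *Havcr2*. *Tcf7* was detected in 5.30% of the cells with *Havcr2* against 57.5% of those without, *Klf2* in 19.9% against 59.2%, and *Il7r* in 17.2% against 45.3%. The follicular homing receptor *Cxcr5* was at 1.32% against 14.6%, *Bcl6*, which encodes the regulator of Tfh cells, at 11.3% against 29.1%, and *Tox2* at 10.6% against 29.9%. *Il21*, the Tfh cytokine, was at 21.9% and 21.6%, and *Maf* at 72.8% and 66.3%. Transcripts of myeloid and B cells were at close shares in the cells with and without *Havcr2*. *Lyz2* was at 3.31% and 4.96%, *Csf1r* at 0.662% and 1.59%, *Cd79a* at 0% and 1.30%, *S100a8* at 11.3% and 8.97% and *S100a9* at 15.9% and 14.0%. The median depth before thinning was 9076 UMIs with *Havcr2* and 7843 without.

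*Lag3* and *Tigit* lay between these sets. Cells with *Lag3* had *Nkg7* in 39.1% (21.3% without) and *Ccl4* in 19.6% (6.21%), but also *Il21* in 33.9% (14.1%), *Maf* in 81.9% (57.5%) and *Cxcr5* in 16.2% (11.8%). Cells with *Tigit* had *Nkg7* in 52.1% (24.9%), *Penk* in 51.6% (26.1%) and *Tcf7* in 29.6% (56.3%), with *Il21* and *Cxcr5* at 23.9% (21.3%) and 11.7% (13.7%). Cells with *Cd200* went the other way from those with *Havcr2* in *Tox2*, at 38.5% (21.4%), *Cxcr5*, at 17.6% (10.7%), and *Ccl5*, at 23.3% (32.9%). They also had *Il21* in 36.2% (11.6%), a gene at close shares with and without *Havcr2*. *Btla* resembled *Cd200*, with *Il21* in 28.0% (13.3%) and *Nkg7* in 21.4% (36.8%).

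**Figure D5:**
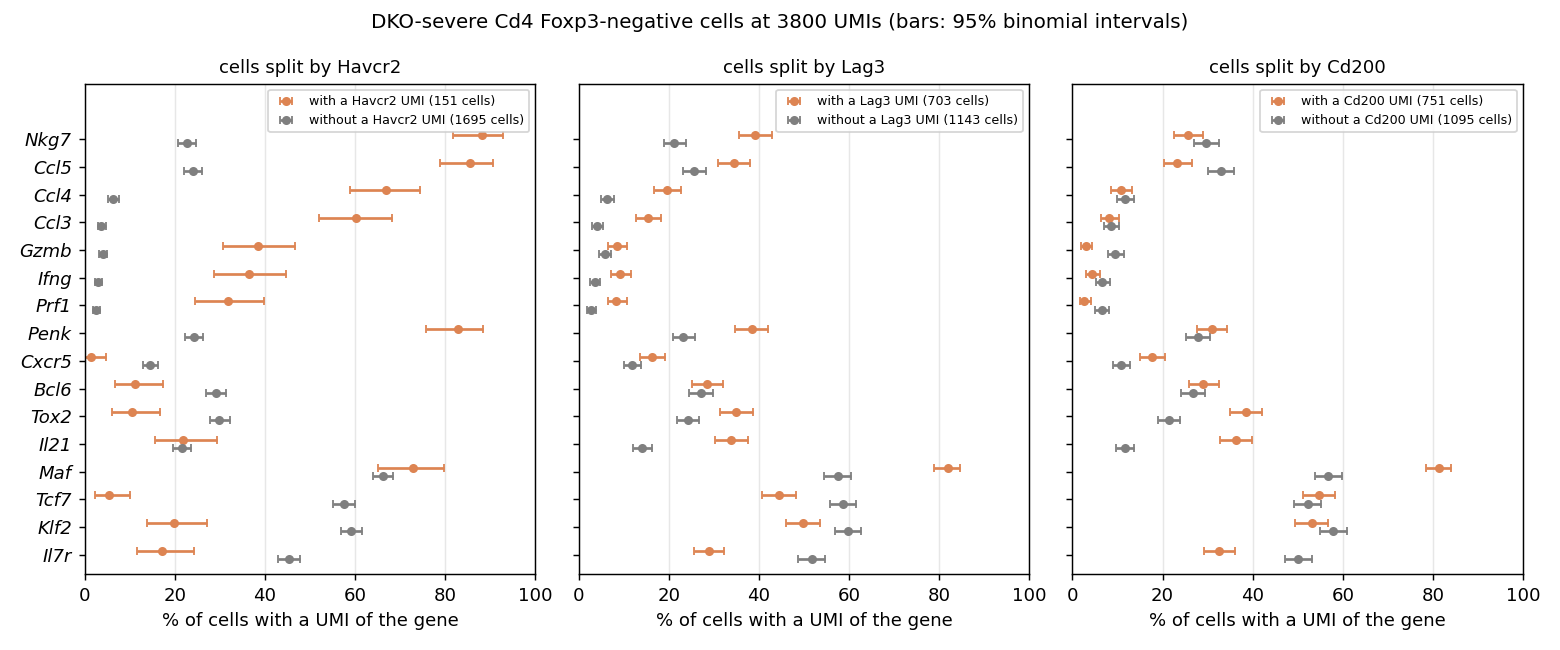
Percent of DKO-severe Cd4 Foxp3-negative cells with a UMI of each named gene, for cells with (orange) and without (grey) a UMI of *Havcr2* (left), *Lag3* (middle) or *Cd200* (right), at 3800 UMIs with 95% binomial intervals. *Nkg7* stands at 88.1% and 22.7% and *Tcf7* at 5.30% and 57.5% in the *Havcr2* panel, while in the *Cd200* panel *Il21* stands at 36.2% and 11.6%.

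The same cells can be split by a gene outside the list, which shows the co-detection from the other side and is no independent support. Among DKO-severe Foxp3-negative cells with *Cxcr5* (249 cells), *Pdcd1* was detected in 38.2% (32.1–44.5), against 26.2% (24.1–28.5) of cells without. *Cd200* was at 53.0% (46.6–59.3) against 38.8% (36.4–41.2), and *Btla* at 67.5% (61.3–73.3) against 55.0% (52.6–57.5). *Havcr2* was found in 2 of the *Cxcr5* cells (0.803%, 0.0974–2.87) against 9.33% (7.95–10.9), and *Tigit* was at 10.0% and 11.8%. With *Il21* (399 cells) the differences were larger for *Cd200*, at 68.2% (63.4–72.7) against 33.1% (30.7–35.6), and for *Lag3*, at 59.6% (54.7–64.5) against 32.1% (29.7–34.6). *Icos* was at 83.0% (78.9–86.5) against 61.2% (58.6–63.7) in these cells, while *Havcr2* was at 8.27% and 8.15%.

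*Cntn5*, a contactin gene, marked cells with *Cd200* (65.1% against 30%), *Btla* (74.4% against 49.0%) and *Lag3* (54.6% against 30.8%), and with little *Havcr2* (3.20% against 10.4%). *Ikzf2*, which encodes the Treg factor Helios, went with *Ctla4* in both genotypes, at 69.1% (66.3–71.9) against 41.8% (38.2–45.3) in DKO-severe and 44.5% against 10.5% in WT.

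In DKO-severe Cd8 cells, 19 of the 23 pairs with a product of at least 5 cells lay above it. The highest were *Ctla4* with *Cd200* (22 cells, a ratio of 3.90) and *Pdcd1* with *Ctla4* (23 cells, 3.72). *Btla* with *Havcr2* was again the lowest, in 3 cells with a ratio of 0.399. The 37 Cd8 cells with *Havcr2* had *Gzmb* in 81.1% (17.1% without), *Gzmk* in 62.2% (11.1%), *Ifng* in 45.9% (7.12%) and *Tcf7* in 5.41% (60.3%). From the side of the subsets, *Havcr2* was detected in 11.9% (7.71–17.3) of cells with *Gzmk* and 1.02% (0.558–1.70) of those without, and *Btla* in 5.70% (2.88–9.97) and 22.4% (20.2–24.7). With *Tox*, a regulator of chronically stimulated CD8 cells, *Lag3* was at 6.39% (4.82–8.27) against 1.08% (0.469–2.12) and *Pdcd1* at 5.54% against 1.49%, while *Havcr2* was at 2.17% and 2.57%. The 57 Cd8 cells with *Pdcd1* had *Ikzf2* in 50.9% (10.7% without), and their median depth before thinning was 6479 UMIs against 9463.

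Ligands of these receptors were mostly low in T cells and did not move as a group. Of 12 ligand genes, with *Cd200r1*, the receptor for CD200, counted among them, 4 had a mean of 20 CPM or more in Cd4 Foxp3-negative cells, with 1 at least 2-fold higher, 1 at least 2-fold lower and a median log2 ratio of 0.07. The higher one was *Pdcd1lg2* (PD-L2, a ligand of PD-1), with 13.5 CPM in WT against 59.4 CPM, and the lower one *Lgals9* (galectin-9, a ligand of TIM-3), at 83.6 and 34.8 CPM. *Cd274* (PD-L1) was at 44.1 and 40.8 CPM. In Foxp3-positive cells 1 of 5 was at least 2-fold higher and 2 lower (median 0.27), in Cd8 cells 0 and 1 of 3 (median -0.32) and in innate-like cells 0 and 0 of 4 (median 0.03). *Fgl1*, a ligand of LAG-3, had 0 UMIs in every gate.

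Some related receptors went the other way from the list in CD4 cells. Of 8 such genes, 3 had a mean of 20 CPM or more in Cd4 Foxp3-negative cells, with 0 at least 2-fold higher, 1 lower and a median log2 ratio of -0.94. *Cd226*, the activating receptor that shares its ligand with TIGIT, was with 172 CPM in WT against 89.5 CPM, and *Cd96*, another receptor for that ligand, at 124 and 27.7 CPM. The log2 ratio of *Vsir* (VISTA) was 0.56, above 0. In Foxp3-positive cells *Cd226* was at 179 and 42.4 CPM and *Cd96* at 174 and 28.0 CPM, 2 of 3 being at least 2-fold lower (median -2.08). *Tigit* was thus higher in DKO-severe in both CD4 gates while its competitor *Cd226* was lower. In Cd8 cells 1 of 5 was higher, *Cd160* (a further receptor for HVEM, the ligand of BTLA), at 23.7 and 70.7 CPM, and 0 lower (median -0.33). In innate-like cells 0 were higher and 1 of 5 lower (median -0.51). The lower levels of *Cd226* and *Cd96* were not limited to CD4 cells. Their log2 ratios were -0.64 and -0.33 in Cd8 cells and -0.54 and -1.03 in innate-like cells, with intervals below 0.

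Signalling genes below the receptors differed less. Of 8, 8 had a mean of 20 CPM or more in each gate, and 0 were at least 2-fold higher in any gate. Their median log2 ratio was -0.33 in Cd4 Foxp3-negative, -0.15 in Foxp3-positive, 0.05 in Cd8 and -0.28 in innate-like cells. *Ptpn11* (SHP-2, a phosphatase that PD-1 recruits) was at 44.2 and 81.8 CPM in Cd4 Foxp3-negative cells.

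Some genes had nearly the same profile as a receptor over the 8 levels (4 gates by 2 genotypes). By Pearson's r of log2(CPM + 1) among 6382 genes, the nearest were *Eea1* for *Pdcd1* (r = 0.993), *Tfg* for *Ctla4* (0.992), *Wdr26* for *Icos* (0.991), *Aebp2* for *Cd28* (0.965) and *Nrip1* for *Btla* (0.982). For *Lag3* it was *Cops9* (0.991), for *Tigit* the long noncoding RNA gene *Morrbid* (0.984), for *Havcr2* *Sh2d2a* (0.989) and for *Cd200* *Gm49180* (0.990). *Pdcd1lg2* was the second nearest to *Icos* (0.990). The 8 levels come from 2 mice, differ in depth and share cells between the innate-like and other gates, so these values only describe the profiles.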

How the data were processed

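TCRβ+ cells of a WT and a DKO-severe mouse were marked with hashtag antibodies, per the labels, and captured with a 10x 3′ v3.1 kit in one mRNA and one hashtag library. The authors aligned reads to mm10 and counted UMIs with Cell Ranger 7.1.0, and the submitters' processing notes also name Seurat. The study used 1 mouse per genotype. The deposited values are raw UMI counts per gene and barcode, with no normalization, in 1 matrix for each genotype, and each matrix was matched to its genotype by the hashtag it carried. No barcode was shared between the 2 matrices.

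From 7189 WT and 7161 DKO-severe barcodes (45294779 and 69692053 UMIs), barcodes with the other hashtag (3 and 0), with fewer than 500 genes or over 10% mitochondrial UMIs (182 and 396) and the 6% with the highest Scrublet doublet score (420 and 406, since the automatic threshold called 0) were left out, which retained 6584 and 6359 cells. UMIs were summed per gate and given as CPM with exact Poisson intervals. Ratios carry exact conditional binomial intervals and shares Clopper-Pearson intervals, all at 95% and for counting error only. Sums under 3 UMIs were counted as 3. For detection each cell was thinned to 3800 UMIs with gates applied afterwards, leaving out 688 WT (10.4%) and 476 DKO-severe (7.49%) shallower cells. With 1 mouse per genotype, cells are not replicates and no test was run.

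The genes named are the 9 receptors, fixed ligand, related receptor, signalling, gate, subset and marker lists, and the nearest genes by correlation. Genes set beside cells with or without a receptor were chosen by size of difference after their values were seen. Some genes of these lists are not reported here. The members and lists were chosen with earlier results of these data known. The interval and thinning steps were tested on simulated counts. Alternatives covered gate thresholds, gate overlap, doublets, other lineages, denominator, centring, pseudocount, mitochondrial limit and thinning depth. Software was Python 3.11.15 with numpy 2.4.6, scipy 1.17.1, scanpy 1.11.5 and matplotlib 3.10.9.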

Additional observations from a re-analysis of the deposited data

Results flagged for a closer look

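*Btla* was higher in DKO-severe in both Cd4 gates and lower in Cd8 cells. Its log2 ratio of DKO-severe over WT was 1.10 in Cd4 Foxp3-negative cells and 0.59 in Foxp3-positive cells, against -0.23 in Cd8 cells, with intervals on opposite sides of 0. With 1 mouse per genotype the difference between gates was not tested. In innate-like cells no direction is read: the *Btla* value was 0.57 over the whole gate, 0.05 without cells of the Cd4 gate and 0.04 at equal depth, where 33.3% of WT and 30.6% of DKO-severe cells carried it.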

How the results depend on the processing

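The 36 receptor ratios were recomputed under the alternatives, which gave 395 values, 338 of them within the interval of the ratio reported and 57 outside it. None of the 36 turned in sign where its reported interval excluded 0. Doublet and mitochondrial settings left 0 values outside, thinning to equal depth 17 of 35, a gate of 2 or more UMIs 11 of 36, and a pseudocount of 5 CPM 8 of 36. The count of receptors at least 2-fold higher was 4 rather than 0 in Cd8 cells with no filter on low genes, and 2 rather than 4 in innate-like cells thinned to equal depth, where the ratios of *Pdcd1*, *Ctla4*, *Lag3* and *Cd200* were 1.54, 1.96, 1.89 and 1.42 on the log2 scale and 2 of them fell under the mean of 20 CPM. The share of Cd4 Foxp3-negative cells with 2 or more receptors depended on depth. It was 32.8%, 70.3% and 58.7% of WT cells and 79.8%, 93.7% and 93.6% of DKO-severe cells at 2500 UMIs, at 6000 UMIs and without thinning. In Cd8 cells it was 13.8%, 40.0% and 42.1% of WT and 16.0%, 39.0% and 53.7% of DKO-severe cells, and 28.6% of DKO-severe cells without doublet removal. No paired analysis was possible because each genotype is 1 mouse. Foxp3-positive WT levels of *Lag3*, *Tigit* and *Havcr2* rest on 5 or fewer UMIs each, which limits their ratios, and free RNA could not be measured in WT.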

Other observations

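*Ralyl*, which encodes a predicted RNA-binding protein, was the gene whose detection differed most with 5 of the 9 receptors in DKO-severe Cd4 Foxp3-negative cells. It was found in 85.4% of cells with *Cd200* and 43.3% of cells without, in 85.2% and 45.1% by *Lag3*, 79.6% and 53.0% by *Pdcd1*, 72.8% and 43.4% by *Ctla4*, and in 71.0% of cells with *Icos*. *Btla* was divided most by *B3galt1*, a galactosyltransferase gene (57.6% and 33.3%), and *Cd28* by *Tbc1d4*, a Rab GTPase-activating protein gene (67.4% and 50.9%). In WT, *Tbc1d4* was the leading gene with *Pdcd1*, in 33 of 52 cells (63.5%) against 16.7%. These genes were chosen by the size of the difference among all genes, after the values were seen.

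In DKO-severe Foxp3-positive cells at 3800 UMIs, *Penk* divided 57 from 38 cells. *Tigit* was found in 36.8% (24.4–50.7) of the cells with *Penk* and 15.8% (6.02–31.3) of those without, and *Havcr2* in 21.1% (11.4–33.9) and 5.26% (0.644–17.7), with overlapping intervals for both. In the DKO-severe innate-like gate, *Lag3* was found in 1 of 59 cells with *Klrb1c*, the NK1.1 gene, and in 12 of 85 cells without, and *Havcr2* in 3 of 40 cells with *Cd4* and 0 of 104 without.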
